A study of Mus musculus with 12 samples.

Results

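The tissue sequenced was the aorta of male C57BL/6J mice, 10 weeks old, whose infrarenal segment had been infused with porcine pancreatic elastase (PPE) or with saline. PPE digests elastic fibres, and its infusion is a standard way to make the mouse aorta dilate. There were 3 groups of 4 libraries. The PPE week 1 group was harvested 7 days after PPE and the PPE week 2 group 14 days after it. The Sham group received saline and was harvested at day 7, so that PPE week 2 differs from it in time after surgery as well as in the infusion. The labels give the infused segment but not how much of the aorta was taken, and both PPE weeks are set against the same 4 Sham libraries. Whole tissue was sequenced, and fewer cells of a type cannot be told apart from less RNA per cell.

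Described here are the 49 genes that were lower at both PPE weeks. Levels are given as CPM, the count of a gene per 1000000 counts of its library, with the row of highest count, a precursor of ribosomal RNA, left out of the total. A gene was taken if its mean over the 12 libraries was at least 10 CPM, if each of the 8 PPE libraries lay below each of the 4 Sham libraries, and if the Sham mean was at least 1.5 times the mean of each PPE week. Genes of ribosomal proteins were to be left out, but none met the other conditions. Of 34755 accessions in the count table, 7896 besides the ribosomal row reached a mean of 10 CPM, and in 151 of these, or 1.91%, all PPE libraries lay below all Sham libraries. In 169, or 2.14%, all PPE libraries lay above. The 49 genes are the part of the 151 that passed the ratio at both weeks. The comparisons with Sham chose these genes, so their levels against Sham are given as a description without a test. For the 49 genes only the difference between the PPE weeks, which the selection did not use directly, is tested. Both weeks had to lie below Sham, so the selection still limits that difference.

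The genes fall into several kinds of cell function. Fibroblasts of the adventitia, the outer coat of the artery, make collagen and the small proteins that order its fibrils, among them decorin and dermatopontin. Secreted proteins enter the endoplasmic reticulum (ER) through a translocon, are folded and modified there, and travel through the Golgi in coated vesicles. Cytosolic chaperones of the HSP90 and HSP110 families keep client proteins folded, and the heat shock factor HSF1 raises their transcription through paired GAA repeats. Enzymes such as deiodinases, phosphodiesterases and monooxygenases set the local level of hormones, cyclic nucleotides and foreign compounds.

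Total counts per library lay between 8343313 and 12269131. The ribosomal RNA precursor took 30.4% ± 6.34 of them at PPE week 1 and 20.4% ± 1.13 at PPE week 2, against 41.3% ± 6.48 in Sham (SD, n = 4). The share was lower at each PPE week than in Sham by a two-sided exact permutation test (p = 0.0286 each, the smallest that 4 against 4 libraries allow). Left out of the total, it leaves 4835305 to 9169690 counts per library. The counts appear to omit reads that isoforms share, so the level of a gene with several accessions would be that of the part unique to the accession. This touches 6 of the 49 genes (Postn, R3hdm2, Calu, Tsc22d1, Brwd1 and Dcn), while the other 43 have 1 accession each. Smooth muscle markers summed to 3041 to 5692 CPM at PPE week 1 and 9058 to 18480 CPM at PPE week 2, against 10128 to 13274 CPM in Sham. None of the 12 smooth muscle markers is among the 49 genes. The 49 are a small part of the 7896 accessions at or above 10 CPM, so a short list can miss them all. Haemoglobin genes Hba-a1, Hbb-bs and Hbb-bt had no count in any library, and skeletal muscle markers summed to at most 31.5 CPM.

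**Figure D1:**
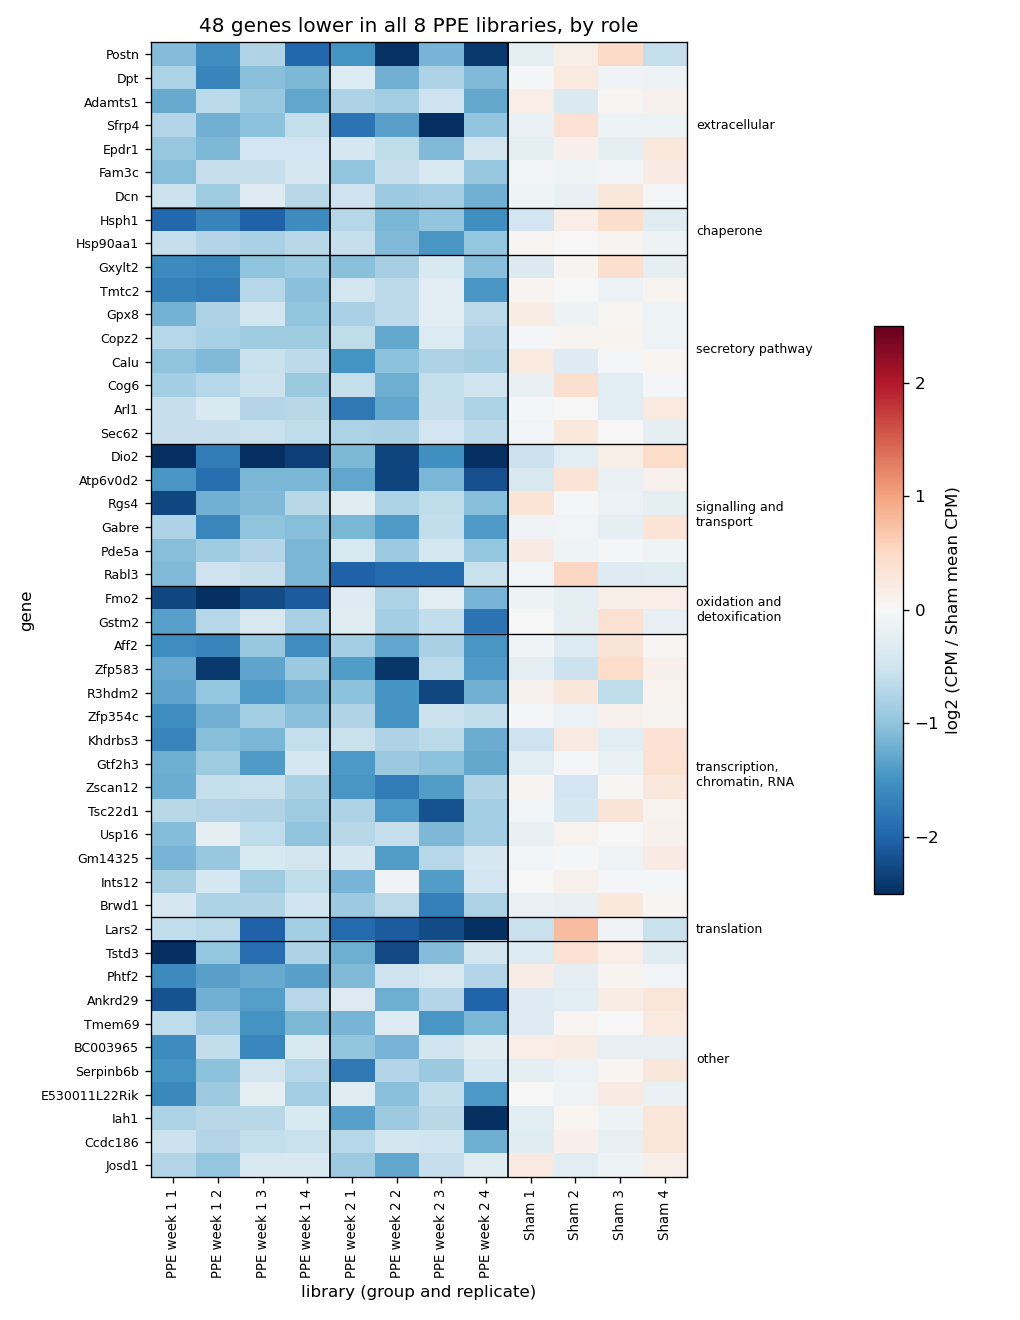
Level of 48 of the 49 genes (rows, grouped by function) in each of the 12 libraries (columns), as log2 of CPM over the Sham mean of that gene, with blue lower and red higher and colours ending at 2.5. All 8 PPE columns lie below 0 in each row, though Ints12 in PPE week 2 replicate 2 (46.5 CPM, against a Sham mean of 49.7 CPM) is close to white, with the deepest values for Dio2, Postn, Fmo2, Lars2 and single libraries of Sfrp4, Tstd3 and Iah1.

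Relative to its Sham mean, the median gene of the 49 stood at 0.464 to 0.573 in the PPE week 1 libraries and at 0.483 to 0.609 in the PPE week 2 libraries, against 0.949 to 1.04 in the Sham libraries. The fold by which PPE week 1 lay below Sham ran from 1.502 to 5.26 with a median of 1.83, and for PPE week 2 from 1.501 to 4.60 with a median of 1.79. At both weeks 9 genes were lower by at least 2-fold, while 20 were so at PPE week 1 and 18 at PPE week 2. The mean was lower at PPE week 1 for 24 genes and at PPE week 2 for 25. The separation between groups was often narrow: the lowest Sham library was 1.0001 to 1.67 times the highest PPE library, with a median of 1.12. It was narrowest for Tmem69 and widest for Atp6v0d2. The Sham libraries of these genes varied with a median coefficient of variation of 16.5%, against 23.2% over all 7896 accessions at or above 10 CPM, and a condition on non-overlap favours genes with little spread in Sham.

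Just inside the ratio of 1.5 were Fmo2 (1.501), Sec62 (1.502) and Arl1 (1.504), each by its smaller fold. Just outside stood Sord (1.494), Chordc1 (1.492) and Usp53 (1.477), whose PPE libraries also all lay below Sham. At the limit of 10 CPM, Zfp583 had a mean of 10.6 CPM, E530011L22Rik 10.97 CPM and Tstd3 11.1 CPM, and the nearest accession below it was that of St6galnac3 at 6.60 CPM. The number of genes depends on the scale. With TMM scaling, which sets libraries by the bulk of their genes, 61 genes met the same conditions, 47 of them among the 49. With the ribosomal row kept in the total only 4 did, namely Atp6v0d2, Lars2, Dio2 and Sfrp4.

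**Figure D2:**
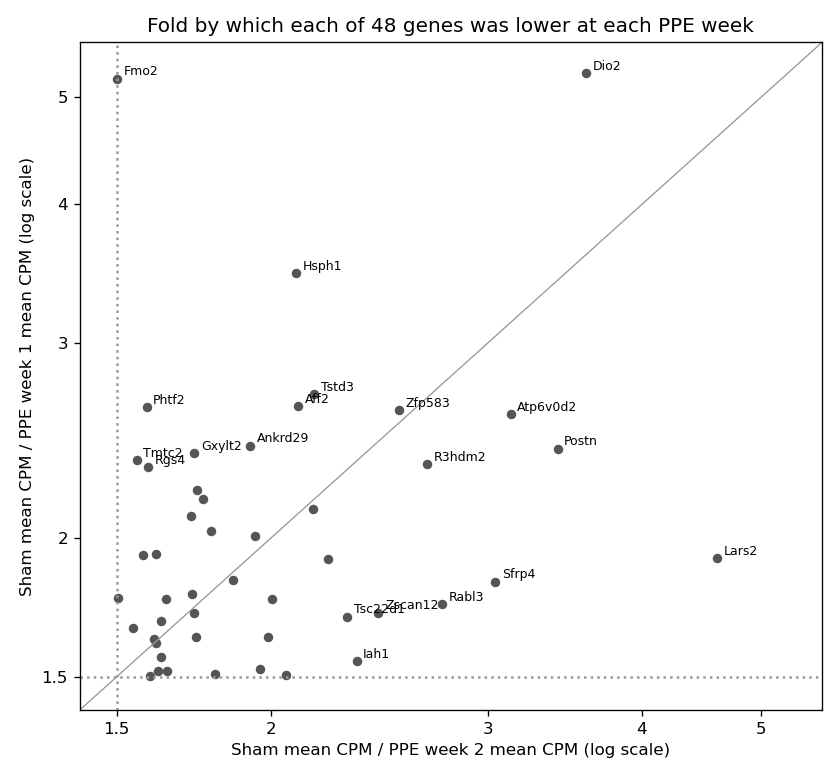
Sham mean over PPE week 2 mean (horizontal) and over PPE week 1 mean (vertical) for 48 of the 49 genes, both on log axes, with dotted lines at the ratio of 1.5 and a diagonal of equal folds; the genes with a fold above 2.3 at either week are named. Dio2 is far from 1.5 on both axes, Fmo2 on the vertical axis alone, and Lars2, Sfrp4 and Postn lean to PPE week 2.

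Dio2 had the largest fold at PPE week 1 and the second largest at PPE week 2. It encodes the type 2 deiodinase, which turns thyroxine into the active hormone T3 inside cells, and its transcription is known to respond to cyclic AMP. Dio2 was at 8.04, 16.6, 6.96 and 11.1 CPM at PPE week 1, at 25.8, 11.4, 19.4 and 5.67 CPM at PPE week 2, against 38.6, 46.1, 62.4 and 77.4 CPM in Sham (replicates 1 to 4). The highest PPE library reached 25.8 CPM and the lowest Sham library was at 38.6 CPM. Means were 10.7 ± 4.33 CPM at PPE week 1 and 15.6 ± 8.87 CPM at PPE week 2, against 56.1 ± 17.3 CPM in Sham (SD, n = 4 here and below), 5.26-fold lower at PPE week 1 and 3.60-fold lower at PPE week 2 than in Sham. The promoters of Dio2 and Hsph1 are shown because a motif of a factor known to act on each gene is found in them. Each is 300 bases from RefSeq (GRCm38.p6, the assembly behind mm10), 250 before and 50 after a listed start, with matches in capitals: TGACGTCA, the cyclic AMP response element, in Dio2 (chr12:90738989-90739288, minus strand), and GAANNTTC or TTCNNGAA, paired heat shock repeats, in Hsph1 (chr5:149636287-149636586, minus strand).
Dio2: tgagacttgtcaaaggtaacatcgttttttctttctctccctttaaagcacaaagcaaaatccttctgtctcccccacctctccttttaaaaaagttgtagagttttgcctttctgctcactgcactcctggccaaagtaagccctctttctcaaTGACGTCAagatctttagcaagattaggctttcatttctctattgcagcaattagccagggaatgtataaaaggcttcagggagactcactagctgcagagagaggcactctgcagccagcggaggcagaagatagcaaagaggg
Hsph1: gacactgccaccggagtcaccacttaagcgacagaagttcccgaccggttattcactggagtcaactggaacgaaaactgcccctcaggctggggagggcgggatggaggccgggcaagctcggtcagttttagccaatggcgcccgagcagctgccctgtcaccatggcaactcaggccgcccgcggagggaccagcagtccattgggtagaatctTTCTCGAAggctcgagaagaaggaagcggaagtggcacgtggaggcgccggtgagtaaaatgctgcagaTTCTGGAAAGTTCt

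In the Dio2 promoter the match lies at positions -95 to -88 from the start. Hsph1 has matches at -33 to -26, 37 to 44 and 42 to 49, the last pair overlapping. Promoters were found for 40 of the 49 genes and were searched on both strands, and the motifs TGACGTCA, GAANNTTC and TTCNNGAA read the same on either strand. TGACGTCA was in 1 of the 40, or 2.5%, against 3.09% of the 9556 promoters of tested genes. GAANNTTC was in 3 of 40, or 7.5%, against 5.79%, and TTCNNGAA in 4 of 40, or 10%, against 7.16%. The shares among the 49 genes are close to those of tested genes at large. TATAA was in 6 of 40 against 14.3% of tested genes' promoters, CCAAT in 14 of 40 against 38.1%, and the CArG box, the site of serum response factor, in 1 of 40 against 1.38%.

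Extracellular proteins were 7 of the 49 genes: Postn, Dpt, Dcn, Sfrp4, Adamts1, Fam3c and Epdr1. Their folds were 1.51 to 2.41 at PPE week 1 and 1.55 to 3.42 at PPE week 2. Dpt encodes dermatopontin, a matrix protein that binds decorin and collagen fibrils (NM_019759, chromosome 1, 164796663 to 164824274, mm10). Dpt was at 419, 231, 353 and 332 CPM at PPE week 1, at 569, 317, 423 and 336 CPM at PPE week 2, against 701, 856, 681 and 661 CPM in Sham (replicates 1 to 4). The highest PPE library was PPE week 2 replicate 1, below the lowest Sham library at 661 CPM. Means were 334 ± 77.6 CPM at PPE week 1 and 411 ± 115 CPM at PPE week 2, against 725 ± 89.0 CPM in Sham, 2.17-fold lower at PPE week 1 and 1.76-fold lower at PPE week 2. Dcn encodes decorin, a small leucine-rich proteoglycan on collagen fibrils, and the counts appear to be those of the part unique to 1 isoform (NM_001190451, chromosome 10, 97479500 to 97518163, mm10). This accession stood at 161 ± 26.9 CPM at PPE week 1 and 135 ± 27.1 CPM at PPE week 2, against 243 ± 36.6 CPM in Sham. The other Dcn accession held 1280 counts over all libraries, against 14742 for this one. Postn, periostin, a matricellular protein of activated fibroblasts, likewise appears to be counted in the unique part of 1 of 5 accessions, while its other 4 had no count. Postn was at 20.5, 14.9, 25.7 and 11.1 CPM at PPE week 1, at 15.4, 7.87, 19.4 and 8.18 CPM at PPE week 2, against 36.5, 47.8, 60.7 and 28.8 CPM in Sham (replicates 1 to 4). The lowest Sham library was 1.12 times the highest PPE library, and the means were 18.0 ± 6.40 CPM at PPE week 1 and 12.7 ± 5.67 CPM at PPE week 2, against 43.4 ± 13.9 CPM in Sham.

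Sfrp4 encodes a secreted protein that binds Wnt ligands (NM_016687, chromosome 13, 19623175 to 19632825, mm10). Sfrp4 was at 330.0, 236, 268 and 359 CPM at PPE week 1, at 152, 214, 75.7 and 275 CPM at PPE week 2, against 486, 698, 499 and 498 CPM in Sham (replicates 1 to 4). Sham replicate 2 stood above the other Sham libraries, and PPE week 2 replicate 3 was the lowest of all. Means were 298 ± 56.0 CPM at PPE week 1 and 179 ± 85.3 CPM at PPE week 2, against 545 ± 102 CPM in Sham, 1.83-fold lower at PPE week 1 and 3.04-fold lower at PPE week 2. Adamts1 encodes a metalloproteinase that cleaves the proteoglycans versican and aggrecan. Adamts1 was at 93.0, 139, 114 and 90.05 CPM at PPE week 1, at 129, 121, 154 and 91.3 CPM at PPE week 2, against 249.1, 173, 225 and 239 CPM in Sham (replicates 1 to 4). Its lowest Sham library was replicate 2, 1.12 times the highest PPE library, PPE week 2 replicate 3. Fam3c, a secreted cytokine-like protein, and Epdr1, a secreted protein related to ependymin, were 1.56-fold and 1.66-fold lower at PPE week 1 and 1.63-fold and 1.55-fold lower at PPE week 2.

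**Figure D3:**
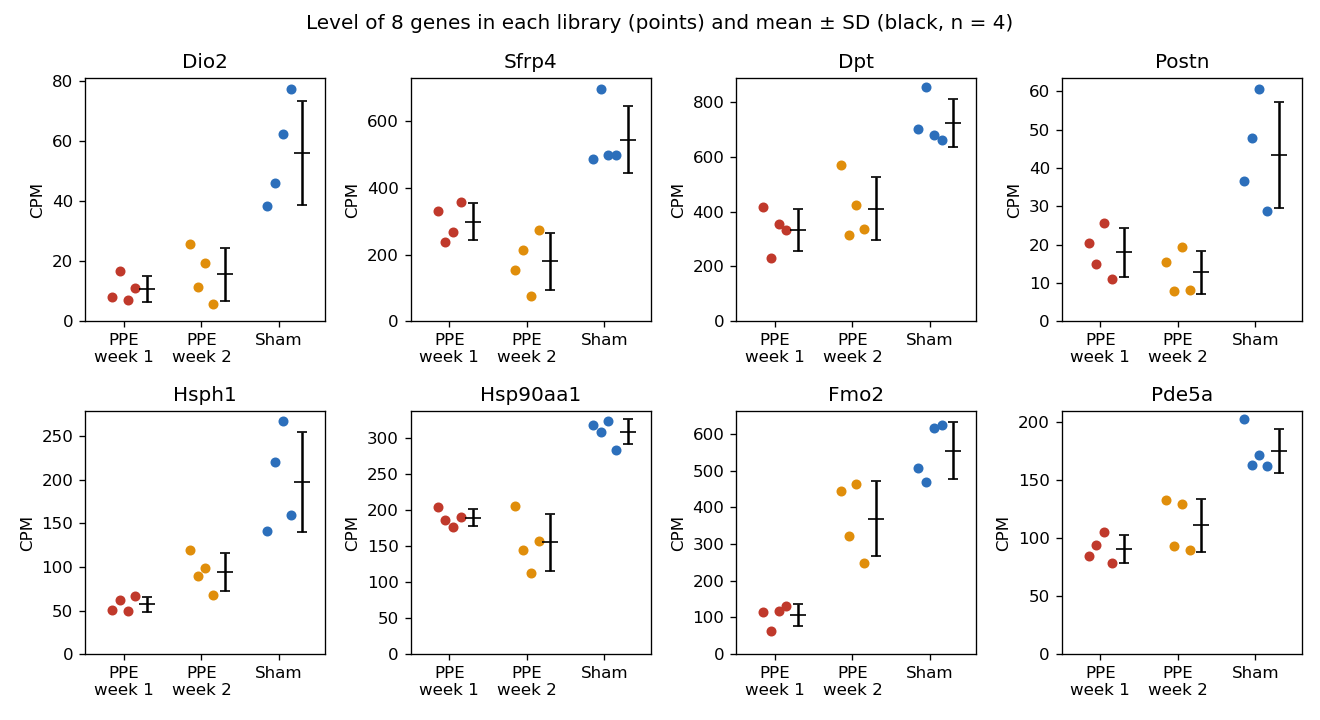
CPM in each library (points, n = 4 per group) with mean ± SD in black, for Dio2, Sfrp4, Dpt, Postn, Hsph1, Hsp90aa1, Fmo2 and Pde5a, each axis starting at 0. In each panel the 8 PPE points lie below the 4 Sham points; for Fmo2 PPE week 1 lies far below PPE week 2, where the highest library (463 CPM) is just under the lowest Sham library (469 CPM).

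Other genes of the same families were read from lists, leaving out any of the 49, with the test over all 12849 accessions that passed the low-count filter (edgeR's quasi-likelihood test, adjusted p under 0.05). By that test 7.86% of accessions differed at PPE week 1 from Sham, 3.87% lower and 3.99% higher, and 2.65% at PPE week 2, 1.34% lower and 1.31% higher. Of 8 small leucine-rich proteoglycans other than Dcn, 2 fell at PPE week 1 (Lum and Ogn) and 1 at PPE week 2 (Lum), with median log2 fold changes of -0.38 and 0.15, against 0.0028 and 0.0502 over all accessions. Lum, lumican, averaged 611 ± 142 CPM at PPE week 1 and 556 ± 100.1 CPM at PPE week 2, against 899.7 ± 195 CPM in Sham. Of 13 fibrillar and associated collagens 1 fell at each week by edgeR, Col14a1, a collagen on the surface of fibrils. Col14a1 averaged 2050 ± 198 CPM at PPE week 1 and 2145 ± 277 CPM at PPE week 2, against 3140 ± 349 CPM in Sham. Of 9 adventitial fibroblast markers other than Dpt and Dcn, 3 fell at PPE week 1 (Pi16, Lum and Cytl1) and 2 at PPE week 2 (Lum and Mfap5), with medians of -0.70 and -0.44. None rose by edgeR or DESeq2 at either week (before adjustment, 0 and 1 had p under 0.05 and were higher). Lum is on both of these lists. Without Dpt and Dcn the adventitial markers in the table summed to 1038 to 1400 CPM at PPE week 1 and 1215 to 1403 CPM at PPE week 2, against 1662 to 1925 CPM in Sham. Lum and Mfap5 weigh most in these sums, Mfap5 averaging 370 CPM at PPE week 1 and 264 CPM at PPE week 2, against 426 CPM in Sham. At PPE week 2 Pi16 averaged above Sham (236 against 197 CPM), as did Clec3b (121 against 91.3 CPM), Gsn and Opcml. Lum, Mfap5, Cytl1, Pdgfra and Cd34 averaged below it. Ly6a, one of these markers, had no count in any library. The part of that lower marker sum in the lower extracellular genes was not tested. Of 6 activated fibroblast markers other than Postn, edgeR called none at PPE week 1, where DESeq2 called 1 higher and the median was 0.28. At PPE week 2 Cthrc1 fell by edgeR, with a median of -0.07. Without Postn the activated markers in the table summed to 42539 to 51728 CPM at PPE week 1. Their sum was 31887 to 44524 CPM at PPE week 2 and 30991 to 38883 CPM in Sham. Col1a1 alone averaged 43725.6 CPM at PPE week 1 and 32495.5 CPM in Sham.

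Of 19 matrix proteases other than Adamts1, 1 fell and 1 rose at PPE week 1 (Ctsl, cathepsin L, and Ctsb, cathepsin B), with a median of -0.10. At PPE week 2 Ctsl and 4 more fell, with a median of -0.33, and none rose by edgeR or DESeq2 or before adjustment. Mmp3, Mmp14, Adam10 and Adam12 fell at PPE week 2 without passing the test at PPE week 1 (log2 fold changes there -0.53, 0.26, -0.06 and 0.55). Among 10 Wnt modulators other than Sfrp4, 3 fell at PPE week 1 by edgeR (Sost, Sfrp2 and Dkk3), with a median of -0.54. DESeq2 called 3 lower and 1 higher there, and before adjustment 3 were lower and 1 higher with p under 0.05. Sfrp1 averaged 1032 ± 178 CPM at PPE week 1, against 554 ± 100 CPM in Sham. None was called at PPE week 2 by edgeR, with a median of -0.32, while DESeq2 called 1 higher, and before adjustment 2 were higher and 2 lower with p under 0.05.

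Chaperones were 2 of the 49 genes. Hsph1 encodes an HSP110 protein that exchanges nucleotide on HSP70 (NM_013559, chromosome 5, 149616843 to 149636498, mm10). Hsph1 was at 51.0, 61.6, 48.9 and 66.2 CPM at PPE week 1, at 119.95, 89.1, 99.0 and 68.2 CPM at PPE week 2, against 142, 220.5, 267 and 159.9 CPM in Sham (replicates 1 to 4). The 4 PPE week 1 libraries were the lowest, PPE week 2 replicate 4 came next, and the Sham libraries spread widely from 142 CPM upward. Means were 56.9 ± 8.32 CPM at PPE week 1 and 94.1 ± 21.5 CPM at PPE week 2, against 197 ± 57.6 CPM in Sham, 3.47-fold lower at PPE week 1 and 2.10-fold lower at PPE week 2. Hsp90aa1, the stress-inducible cytosolic HSP90 (NM_010480, chromosome 12, 110691036 to 110696395, mm10), varied little in Sham. Hsp90aa1 was at 204, 186, 177 and 191 CPM at PPE week 1, at 206, 145, 112 and 157 CPM at PPE week 2, against 318, 309, 323 and 284 CPM in Sham (replicates 1 to 4). Its lowest Sham library was 1.38 times its highest PPE library. Means were 189 ± 11.4 CPM at PPE week 1 and 155 ± 39.0 CPM at PPE week 2, against 309 ± 17.6 CPM in Sham, 1.63-fold lower at PPE week 1 and 1.99-fold lower at PPE week 2.

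Further heat shock genes, picked after the 49 were known and given as levels only, mostly overlapped Sham. For Hsp90ab1, the constitutive HSP90, all 8 PPE libraries also lay below Sham, at 913 ± 64.2 CPM at PPE week 1 and 769 ± 95.1 CPM at PPE week 2, against 1242 ± 97.1 CPM in Sham, which is under the ratio of 1.5 at PPE week 1. The same non-overlap held for Chordc1, an HSP90 cochaperone, at 70.2 ± 5.80 CPM at PPE week 1 and 64.8 ± 6.33 CPM at PPE week 2, against 104.7 ± 12.9 CPM in Sham. It also held for Hspa4, an HSP110 relative, at 285 ± 24.5 CPM at PPE week 1 and 254 ± 20.9 CPM at PPE week 2, against 336 ± 8.18 CPM in Sham. Hspa8, the constitutive HSP70, averaged 691 ± 71.9 CPM at PPE week 1 and 476 ± 58.4 CPM at PPE week 2, against 908 ± 226 CPM in Sham, with overlap. Bag3, another gene under heat shock control, stood at 79.0 ± 9.32 CPM at PPE week 1 and 91.1 ± 28.8 CPM at PPE week 2, against 82.7 ± 8.20 CPM in Sham. Not all PPE libraries lay below Sham either for Hspa4l, Hspd1, Hspe1, Hspb1, Dnajb1, Dnajb4, Ahsa1, Stip1, Fkbp4, Cacybp, Hsp90b1 and Calr.

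The secretory pathway gave 8 of the 49 genes, with folds of 1.502 to 2.39 at PPE week 1 and 1.504 to 2.06 at PPE week 2. Sec62, part of the translocon through which proteins enter the ER (NM_027016, chromosome 3, 30792876 to 30821263, mm10), was tight within the PPE groups. Sec62 was at 195, 197, 198 and 188 CPM at PPE week 1, at 169.8, 168, 209 and 185 CPM at PPE week 2, against 280.4, 349, 290.0 and 248.8 CPM in Sham (replicates 1 to 4). Sham replicate 4 was the lowest Sham library, 1.19 times the highest PPE library. Calu, calumenin, a calcium-binding protein of the ER, averaged 37.0 ± 6.72 CPM at PPE week 1 and 32.5 ± 6.75 CPM at PPE week 2, against 65.2 ± 10.4 CPM in Sham. Gpx8, a peroxidase of the ER, averaged 77.5 ± 16.9 CPM at PPE week 1 and 91.0 ± 15.3 CPM at PPE week 2, against 137 ± 14.1 CPM in Sham. Gxylt2 adds xylose to glucose on the EGF repeats of Notch in the ER, and Tmtc2 adds mannose to cadherins there. Gxylt2 was 2.39-fold lower at PPE week 1 and 1.73-fold lower at PPE week 2, and Tmtc2 2.35-fold and 1.56-fold. In the Golgi, Copz2 is a subunit of the COPI vesicle coat, Cog6 a subunit of a tethering complex and Arl1 a small GTPase. Copz2 was 1.76-fold and 1.64-fold lower, Cog6 1.68-fold and 1.63-fold, and Arl1 1.504-fold and 2.06-fold, at PPE week 1 and PPE week 2 in that order.

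None of 14 tested ER folding and secretion genes was among the 49, which a short list can miss by its size alone. None was called at PPE week 1 by edgeR or DESeq2, and none had p under 0.05 before adjustment. At PPE week 2, 3 fell by edgeR (Pdia3, P4hb and Hsp90b1) and 6 by DESeq2, 10 were lower with p under 0.05 before adjustment, and the median log2 fold changes were -0.07 at PPE week 1 and -0.58 at PPE week 2. Pdia3, a disulfide isomerase, averaged 1247 ± 133 CPM at PPE week 1 and 853 ± 106 CPM at PPE week 2, against 1267 ± 108 CPM in Sham. Canx had no count in any library, and Hspa5, Ssr4 and Sec61g had fewer than 60 counts each over all libraries. Of 13 translation factors 3 fell at PPE week 2 (Eef1a1, Eef1g and Tpt1), and none was called at PPE week 1 by edgeR or DESeq2, where 4 were higher before adjustment with p under 0.05.

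Signalling and transport gave, besides Dio2, the genes Atp6v0d2, Gabre, Rgs4, Pde5a and Rabl3. Atp6v0d2 encodes a subunit of the vacuolar proton pump that is abundant in osteoclasts and some macrophages (NM_175406, chromosome 4, 19876838 to 19922566, mm10). Atp6v0d2 was at 26.1, 19.3, 32.4 and 32.3 CPM at PPE week 1, at 28.9, 14.6, 32.1 and 15.5 CPM at PPE week 2, against 54.2, 89.8, 63.8 and 77.2 CPM in Sham (replicates 1 to 4). It had the widest separation, its lowest Sham library being 1.67 times its highest PPE library. The macrophage markers summed to 5632 to 7355 CPM at PPE week 1 and 1789 to 5129 CPM at PPE week 2, against 2990 to 3535 CPM in Sham, above Sham at PPE week 1 and on both sides of it at PPE week 2. Their part in the level of Atp6v0d2 was not tested. Pde5a encodes the phosphodiesterase that breaks down cyclic GMP in smooth muscle (NM_153422, chromosome 3, 122729158 to 122859374, mm10). Pde5a was at 84.0, 93.9, 105 and 78.6 CPM at PPE week 1, at 132, 93.1, 129 and 89.2 CPM at PPE week 2, against 203, 163, 171 and 162 CPM in Sham (replicates 1 to 4). The PPE libraries reached at most 132 CPM, and the lowest Sham library was at 162 CPM. Rgs4, which speeds the shut-off of G proteins, averaged 20.7 ± 8.22 CPM at PPE week 1 and 30.2 ± 6.74 CPM at PPE week 2, against 48.0 ± 8.87 CPM in Sham. PPE week 2 replicate 1, at 39.0 CPM, was just below the lowest Sham library at 40.4 CPM. Gabre, an epsilon subunit of the GABA-A receptor, averaged 10.7 ± 2.44 CPM at PPE week 1 and 10.5 ± 2.94 CPM at PPE week 2, against 22.7 ± 4.21 CPM in Sham. Rabl3, a small GTPase of the Rab-like group, averaged 11.4 ± 2.61 CPM at PPE week 1 and 7.19 ± 4.15 CPM at PPE week 2, against 19.8 ± 5.96 CPM in Sham, with PPE week 2 replicate 4 apart from the other PPE week 2 libraries. Smooth muscle markers were lower in the same PPE week 1 libraries and overlapped Sham at PPE week 2, and their part in the levels of Pde5a and Rgs4 was not tested.

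Oxidation and detoxification gave Fmo2 and Gstm2. Fmo2 encodes a flavin-containing monooxygenase, which oxidises nitrogen and sulfur compounds (NM_018881, chromosome 1, 162874317 to 162898758, mm10). Fmo2 was at 115, 63.4, 118 and 130.3 CPM at PPE week 1, at 443, 322, 463 and 248 CPM at PPE week 2, against 506, 469, 616 and 625 CPM in Sham (replicates 1 to 4). PPE week 1 lay far below both other groups, and PPE week 2 came close to Sham without overlap. Gstm2, a glutathione transferase with close relatives in the genome between which reads may be split, averaged 35.4 ± 9.20 CPM at PPE week 1 and 35.0 ± 13.7 CPM at PPE week 2, against 60.7 ± 12.9 CPM in Sham. Of 14 tested genes on the list of flavin monooxygenases and redox enzymes other than Fmo2 and Gpx8, 3 fell and 2 rose (Gpx1 and Prdx5) at PPE week 1, and Prdx1 fell at PPE week 2.

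Transcription, chromatin and RNA handling formed the largest group of functions, with 13 genes and folds of 1.52 to 2.63 at PPE week 1 and 1.61 to 2.68 at PPE week 2. Aff2, a relative of the AF4 elongation factors (NM_008032, chromosome X, 69360190 to 69872054, mm10), had the widest separation of these. Aff2 was at 52.5, 49.7, 80.7 and 52.9 CPM at PPE week 1, at 86.3, 62.6, 88.6 and 56.9 CPM at PPE week 2, against 146, 123, 193 and 158 CPM in Sham (replicates 1 to 4). PPE week 1 replicate 3 stood above the other PPE week 1 libraries, and the lowest Sham library was 1.39 times the highest PPE library. Zinc finger proteins included Zfp583, Zfp354c, Zscan12 and Gm14325. Zfp354c averaged 45.1 ± 8.72 CPM at PPE week 1 and 57.2 ± 14.9 CPM at PPE week 2, against 99.7 ± 7.45 CPM in Sham. Zfp583 averaged 6.88 ± 2.56 CPM at PPE week 1 and 7.06 ± 3.26 CPM at PPE week 2, against 18.0 ± 5.35 CPM in Sham, at 851 counts over all libraries. Gm14325 was 1.62-fold lower at PPE week 1 and 1.61-fold at PPE week 2, and Zscan12 1.71-fold and 2.45-fold. Gm14325 has close copies, and its counts are uncertain for that reason. Khdrbs3, a splicing regulator, averaged 46.8 ± 13.7 CPM at PPE week 1 and 56.9 ± 10.8 CPM at PPE week 2, against 98.0 ± 27.1 CPM in Sham. Usp16, which removes ubiquitin from histone H2A, averaged 59.0 ± 16.5 CPM at PPE week 1 and 55.3 ± 8.94 CPM at PPE week 2, against 96.2 ± 8.75 CPM in Sham. Ints12 is a subunit of the Integrator complex and Gtf2h3 one of the general factor TFIIH. Ints12 was 1.61-fold lower at PPE week 1 and 1.62-fold at PPE week 2, and Gtf2h3 1.92-fold and 2.23-fold. R3hdm2, Tsc22d1 and Brwd1 appear to be counted in the part unique to 1 accession. They were 2.33-fold, 1.70-fold and 1.52-fold lower at PPE week 1 and 2.68-fold, 2.31-fold and 1.96-fold lower at PPE week 2. For Brwd1 the other accessions held more counts (1979) than the one that met the conditions (1435).

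The other 10 genes had folds of 1.52 to 2.70 at PPE week 1 and 1.59 to 2.35 at PPE week 2. Phtf2 averaged 25.5 ± 2.39 CPM at PPE week 1 and 42.3 ± 8.49 CPM at PPE week 2, against 67.0 ± 8.11 CPM in Sham. Serpinb6b, an intracellular serpin with close relatives, averaged 35.3 ± 10.1 CPM at PPE week 1 and 34.7 ± 12.04 CPM at PPE week 2, against 64.7 ± 10.6 CPM in Sham. Ccdc186, a protein of dense-core vesicle formation, averaged 89.0 ± 5.25 CPM at PPE week 1 and 83.4 ± 18.4 CPM at PPE week 2, against 135 ± 26.1 CPM in Sham. Josd1, a deubiquitinase, was 1.52-fold lower at PPE week 1 and 1.65-fold at PPE week 2, and Iah1, an esterase, 1.55-fold and 2.35-fold. Tstd3, Tmem69, Ankrd29, BC003965 and E530011L22Rik, the only long noncoding RNA among the 49, were all below 24 CPM on average in Sham, with folds of 1.78 to 2.70 at PPE week 1 and 1.61 to 2.17 at PPE week 2.

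The row of Lars2 stands apart in level. Lars2 encodes the mitochondrial leucyl-tRNA synthetase (NM_153168, chromosome 9, 123366927 to 123462675, mm10). Whether its counts hold reads of ribosomal RNA cannot be settled from a count table, so its levels and folds may not measure Lars2 mRNA. Lars2 was at 25809.6, 24659.7, 9739 and 21773 CPM at PPE week 1, at 10202, 9245, 8375 and 6363 CPM at PPE week 2, against 26744, 66750.1, 37087 and 26760.4 CPM in Sham (replicates 1 to 4). PPE week 1 replicates 1 and 2 lay closest under the lowest Sham library and replicate 4 further below it. PPE week 1 replicate 3 was among the PPE week 2 values. Per 1000 counts of the ribosomal row, Lars2 had 36.6 to 52.7 counts at PPE week 1 and 25.3 to 38.2 at PPE week 2, against 46.7 to 67.1 in Sham. Its log2 level followed that of the ribosomal row with r = 0.985 over the 12 libraries and r = 0.942 over deviations from the group means, as a description in which both values come from the same libraries. For the other 48 genes the second r was at most 0.562, the value of Hsph1, and its median over the 49 was -0.07. With the share of the ribosomal row as a covariate, the log2 fold change of Lars2 was 0.18 at PPE week 1 and 0.01 at PPE week 2, against -0.97 and -2.26 without it. That share was itself lower in every PPE library than in every Sham library, so this fit cannot separate the share from the group.

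**Figure D4:**
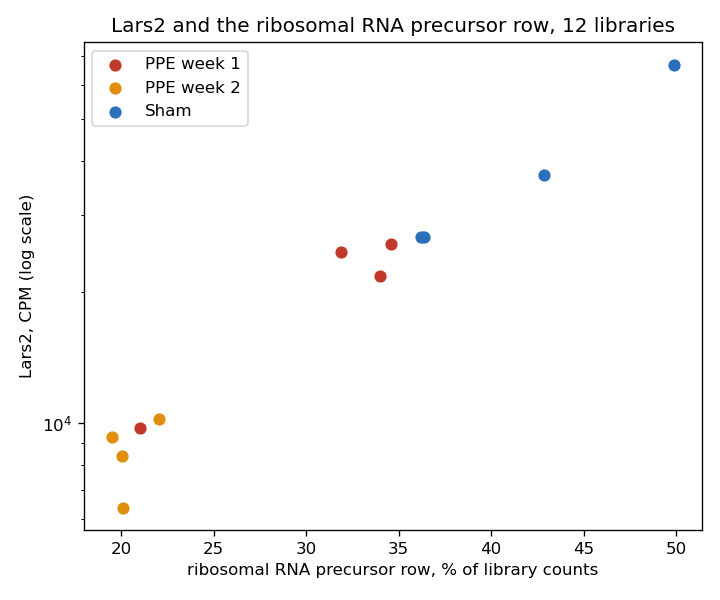
Lars2 in CPM (vertical, log axis) against the share of library counts taken by the ribosomal RNA precursor row (horizontal, %), 1 point per library, coloured by group. The points rise together from PPE week 2 (19.5 to 22.1% of counts) to Sham replicate 2 (49.9%, 66750.1 CPM).

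PPE week 2 was then compared with PPE week 1, the 1 contrast that the selection did not use directly. The selection still bears on this contrast, since both weeks had to lie below Sham, which limits how far they can differ. Counts and medians of the 49 beside those of all accessions are therefore a description. Of all 12849 accessions 6.54% passed the test, 3.74% higher and 2.79% lower at PPE week 2 (edgeR's quasi-likelihood test, Benjamini-Hochberg adjusted p under 0.05). Of the 49 genes 1 passed the test, Fmo2, which rose. None fell by that test. Before adjustment 4 of the 49 with p under 0.05 were higher and 3 were lower, and DESeq2 called 3 higher and 1 lower. A count of 1 in 49 is a smaller share than the 6.54% of all accessions, and the limit set by the selection bears on it. The log2 fold changes ran from -1.29 to 1.78 with a median of -0.03, against 0.02 over all accessions, and 24 were above 0 and 25 below. In 3 of the 49 all PPE week 2 libraries lay above all PPE week 1 libraries, against 9.68% of accessions at or above 10 CPM, and in none did they lie below, against 10.3%.

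Fmo2 averaged 369 ± 102 CPM at PPE week 2 and 107 ± 29.6 CPM at PPE week 1 (SD, n = 4), a log2 fold change of 1.78 ± 0.24 SE (edgeR adjusted p = 0.00106), with the 4 PPE week 2 libraries all above the 4 PPE week 1 libraries. Its adjusted p was 4.17e-10 to 0.0493 over 20 alternatives, each of which called it. Phtf2 averaged 42.3 ± 8.49 CPM at PPE week 2 and 25.5 ± 2.39 CPM at PPE week 1 without passing the test (0.72 ± 0.21, edgeR adjusted p = 0.0520, 0.00854 to 0.443 over the alternatives, 4 of which called it). Hsph1 averaged 94.1 ± 21.5 CPM at PPE week 2 and 56.9 ± 8.32 CPM at PPE week 1 (0.71 ± 0.22, edgeR adjusted p = 0.0667, 0.0128 to 0.177 over the alternatives, 4 of which called it). In the other direction Lars2 averaged 8546 ± 1636 CPM at PPE week 2 and 20495 ± 7369 CPM at PPE week 1 (-1.29 ± 0.39, edgeR adjusted p = 0.0817, 0.00177 to 0.744 over the alternatives), and Sfrp4 179 ± 85.3 CPM at PPE week 2 and 298 ± 56.0 CPM at PPE week 1 (-0.77 ± 0.30, edgeR adjusted p = 0.152, 0.0306 to 0.682 over the alternatives). Among genes that are not of the 49, Fmo1 rose as well (1.402 ± 0.34, edgeR adjusted p = 0.0280), at 186 ± 106 CPM at PPE week 2 and 69.9 ± 17.8 CPM at PPE week 1. Of the 12 smooth muscle markers 9 rose at PPE week 2 against PPE week 1 and none fell.

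**Figure D5:**
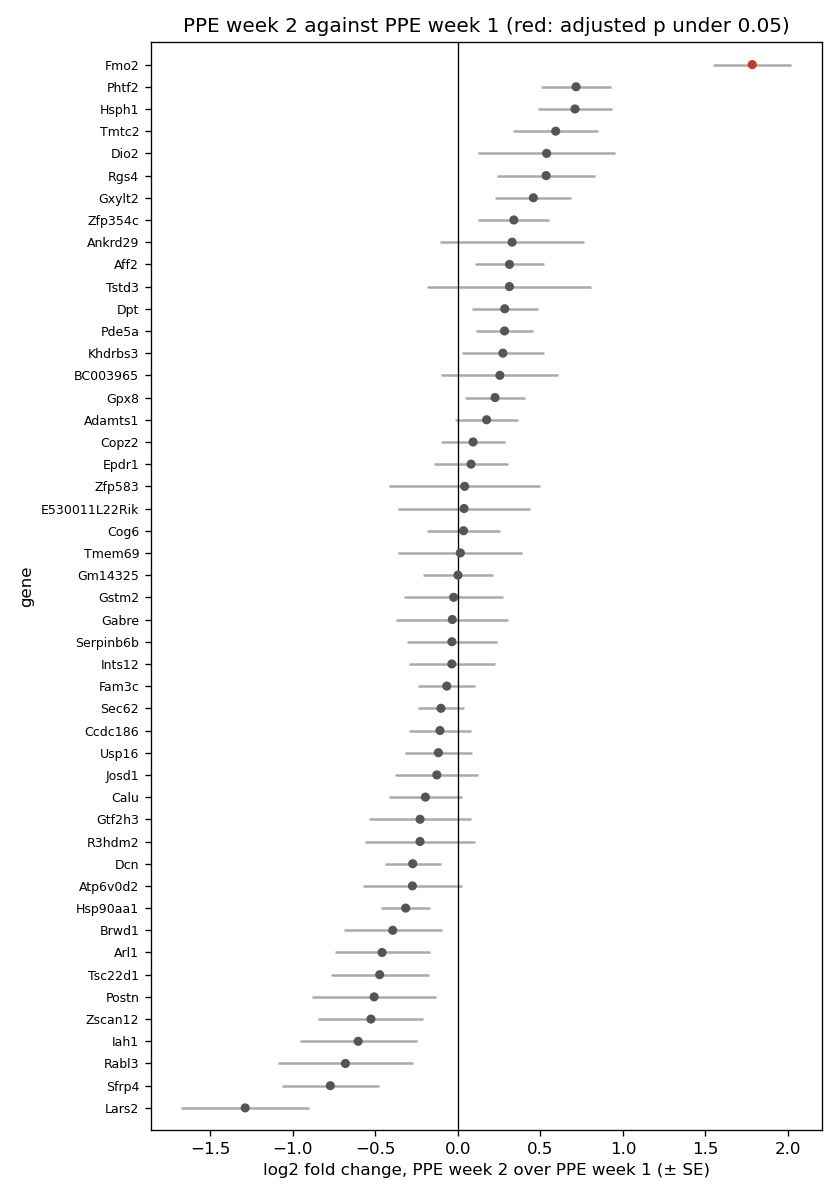
Log2 fold change of PPE week 2 over PPE week 1 (horizontal, ± SE) for 48 of the 49 genes (vertical, sorted), with genes at an adjusted p under 0.05 in red. Fmo2, at 1.78, is the only red point, and the others lie on both sides of 0 between -1.29 and 0.72.

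All 49 genes passed the low-count filter of the fit. Their transcripts had a median length of 2941 bases (930 to 8547), against 2889 bases over the 12607 tested accessions with a length. The genomic span had a median of 24442 bases, against 22743 bases. They are spread over most chromosomes, with 6 on chromosome 3 and fewer on each of the others. All but 1 code for protein.

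All 49 genes were listed in the authors' deposited tables for both weeks. Log2 fold changes in the authors' deposited tables were -2.36 to -0.61 for PPE week 1 and -1.98 to -0.57 for PPE week 2. These values come from the same libraries and contrasts that chose the genes and are no second measurement.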

How the data were processed

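The deposited table holds counts per RefSeq accession that the authors made from reads of unstranded libraries, as whole numbers per the file headers and values. The genome build mm10 and the tools bcl2fastq and DESeq2 come from the submitters' processing notes, which as seen here name no aligner or counter. Log2 fold changes and p-values from tables the authors deposited are quoted as theirs. No sample column was left unused. CPM used library totals without the row of highest count, a ribosomal RNA precursor. The members and the gene lists were chosen with earlier results of these data known. The main fit was edgeR's quasi-likelihood test (edgeR 4.0.16 in R 4.3.3, filterByExpr, TMM) on the counts of all 12 libraries, without that row, with Benjamini-Hochberg adjustment over 12849 accessions and a threshold of 0.05. The code was tested on simulated data. DESeq2 1.42.0 and the other alternatives were run as listed in the closing section. Genes were named by role, by list membership, and by rank of fold, Sham level and difference between the PPE weeks; further genes were named after their values were seen. The labels do not say that libraries of a group came from separate mice, so p-values measure the spread between these libraries, which may be technical. Of the 49 genes 1 enters the counts and ranges but is not reported here by name.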

Additional observations from a re-analysis of the deposited data

Results flagged for a closer look

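Of 147 sets of 4 libraries, 1 for each gene and group, 6 held a library far from the other 3. Chance alone sets apart about 1 in 20 such groups. Gm14325 stood at 147 CPM in Sham replicate 4 and Fam3c at 264 CPM in the same library, both as the highest of their group. Sfrp4 stood at 698 CPM in Sham replicate 2, above the other Sham libraries. Aff2 stood at 80.7 CPM in PPE week 1 replicate 3, and Rabl3 at 13.4 CPM in PPE week 2 replicate 4, each the highest of its group. Cog6 stood at 32.2 CPM in PPE week 2 replicate 2, the lowest of its group.

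Fmo2 differed between the PPE weeks, with a log2 fold change of 1.78 for PPE week 2 over PPE week 1 (edgeR adjusted p = 0.00106, all 4 PPE week 2 libraries above all 4 PPE week 1 libraries), although both weeks lay below Sham.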

How the results depend on the processing

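The number of genes that met the conditions was 49, and 115 at a lower ratio, 9 at a ratio of 2 and 4 with the ribosomal row kept in the total. Leaving out 1 library gave 48 to 88, with 83 without Sham replicate 2 and 88 without PPE week 2 replicate 3. Fewer libraries make the non-overlap easier to meet, and the names changed too. Of the 49, 41 to 47 remained, with 41 without Sham replicate 2, without Sham replicate 4 and without PPE week 2 replicate 2. Accessions called higher and lower numbered 481 and 359 for PPE week 2 against PPE week 1, 513 and 497 for PPE week 1 against Sham, and 168 and 172 for PPE week 2 against Sham. DESeq2 gave 830 and 654, 857 and 788, and 415 and 344 in the same order. With the share of the ribosomal row as a covariate they were 57 and 15, 23 and 59, and 0 and 0. The share of that row was lower in every PPE library than in every Sham library, so this fit cannot separate it from the group. By library size only with that row kept, chosen after seeing the data, 75 were lower for PPE week 2 against PPE week 1, 1034 and 195 were higher and lower for PPE week 1 against Sham, and 1611 and 27 for PPE week 2 against Sham. That scaling moved the median of all accessions to 0.23, 0.28 and 0.54, and the median of the 49 against Sham to -0.61 at PPE week 1 and -0.41 at PPE week 2. Without 1 library the counts were 207 to 648 and 119 to 623, 174 to 783 and 218 to 602, and 67 to 220 and 68 to 194. Between the PPE weeks, 1 of the 49 was called higher and 0 lower. DESeq2 called 3 and 1, as did library size only with the ribosomal row kept, edgeR with DESeq2 size factors called 2 higher, and no low-count filter 2 higher. Without 1 library 1 to 3 were higher and 0 to 1 lower: Lars2 was called without Sham replicate 2 and without PPE week 1 replicate 3, Phtf2 and Hsp90aa1 without PPE week 2 replicate 1, and Hsph1, Tmtc2 and Sfrp4 without PPE week 2 replicate 4. With the ribosomal share as a covariate the log2 fold change against Sham reversed for Lars2, to 0.18 at PPE week 1 and 0.0126 at PPE week 2, and for BC003965 at PPE week 2, to 0.0222. The causes were not tested.

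Libraries with the same replicate number did not deviate together (r between -0.0893 and 0.0311 over the pairs), so the numbers do not pair the libraries. With a replicate block, 91 accessions were higher and 111 lower at PPE week 2 than in Sham, and the other counts, 388 and 332 for PPE week 2 against PPE week 1 and 420 and 446 for PPE week 1 against Sham, stayed within 1.5 times. Depth limits genes near 10 CPM, where a library holds few counts.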

Other observations

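The scale used for the levels changed 16 names at the edge of the set. With TMM scaling 14 further genes met the conditions (Kcne4, Sord, Usp53, Rbbp4, Stbd1, Fkbp14, Sult5a1, Chordc1, Amer1, Rapgef5, Rian, Socs4, Col14a1 and Epha3), and Gxylt2 and Lars2 no longer did. Among those added, Col14a1 encodes a fibril-associated collagen, Fkbp14 a prolyl isomerase of the ER that acts on collagen, and Chordc1 a cochaperone of HSP90.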
